A study of Mus musculus with 18 samples.

Results

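Cell line 4711-18 was compared with cell line 4711-1 before p53 was restored. The comparison used the 3 Control libraries of each line, paired by the sgRNA they carried (sgBgal, sgPpia#3.2 or sgPpia#4.1), and every gene whose level reached 1 TPM in 3 or more of the 6. TPM are transcript counts corrected for transcript length and scaled to the same total in each library. The rule was met by 11913 of the 25239 genes deposited, and 6 of the 18 libraries of the series entered. Both lines were grown from tumours of RPTR R2 mice. These carry Rb1 flox/flox, Rbl2 flox/flox, Rosa26 FlpO-ER and Trp53 XTR/XTR, an allele that is expressed until Cre inverts its gene trap. Their background is mixed C57BL/6J and 129S4vJae. Tumours of small cell lung cancer (SCLC) had been started with adenovirus carrying CMV-Cre. In the lung epithelial cells it enters, Cre deletes Rb1 and Rbl2 and inverts the trap, which switches Trp53 off. Control cells received the ethanol vehicle for 72 h, so Trp53 stayed trapped in all 6 libraries. Restored cells, used here only to see whether a line difference was still present, received 4-hydroxytamoxifen for the same time. The lentiviral guides were sgBgal, the non-targeting control, and a pair that cuts Ppia in exon 3 (sgPpia#3.2) or exon 4 (sgPpia#4.1). The lines were treated as lines of 1 mouse because they share the number 4711, which the sample labels do not explain. The study gives an upper age at tumour initiation and a span of weeks until tumours were excised, but not the age of the animals behind these lines.

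Each line came from a single tumour. Its 3 libraries are derivatives of the same line that carry different guides, so the p-values measure the spread between derivatives and not between tumours. The libraries are bulk RNA, in which fewer cells of a type and less RNA per cell cannot be told apart. A difference was called where the Benjamini-Hochberg adjusted p of limma was under 0.05 and the log2 difference of TPM + 1, 4711-18 minus 4711-1, was at least 1 in size.

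As background, the respiratory tract, the stomach and the duodenum all bud from the embryonic foregut. Cells along it are told apart by a small set of transcription factors. NKX2-1 marks the lung and thyroid fields, SOX2 the front of the foregut, PDX1 the antrum of the stomach, the duodenum and the pancreas, and GATA4 the stomach and other endoderm. FOXA1, FOXA2 and HNF4A are shared by several of these fields. SCLC is most often a neuroendocrine tumour, although forms without that character are known. Lung adenocarcinomas that lose NKX2-1 are known to take on features of stomach epithelium.

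The 5' regions of 3 genes at the ends of the comparison show how different their starts are. Sftpb was higher in 4711-18, Pdx1 and Gstp1 higher in 4711-1. The 250 bases before the transcription start are given from RefSeq, build GRCm38.p6, on the strand of the gene. In Sftpb the capitals mark CTCAAG, which holds the CAAG core bound by NKX2-1. In Pdx1 and Gstp1 the capitals mark each CG dinucleotide.
Sftpb (chr6:72304360-72304609, plus strand): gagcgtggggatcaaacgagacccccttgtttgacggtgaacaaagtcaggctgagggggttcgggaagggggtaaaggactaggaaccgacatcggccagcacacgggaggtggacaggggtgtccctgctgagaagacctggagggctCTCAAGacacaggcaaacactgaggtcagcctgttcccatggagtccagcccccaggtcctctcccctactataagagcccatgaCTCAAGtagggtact
Pdx1 (chr5:147269847-147270096, plus strand): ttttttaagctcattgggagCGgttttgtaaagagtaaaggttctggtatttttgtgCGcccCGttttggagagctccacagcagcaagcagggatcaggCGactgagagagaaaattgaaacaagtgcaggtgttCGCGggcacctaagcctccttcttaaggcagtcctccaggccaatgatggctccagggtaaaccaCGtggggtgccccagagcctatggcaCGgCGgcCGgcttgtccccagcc
Gstp1 (chr19:4037913-4038162, minus strand): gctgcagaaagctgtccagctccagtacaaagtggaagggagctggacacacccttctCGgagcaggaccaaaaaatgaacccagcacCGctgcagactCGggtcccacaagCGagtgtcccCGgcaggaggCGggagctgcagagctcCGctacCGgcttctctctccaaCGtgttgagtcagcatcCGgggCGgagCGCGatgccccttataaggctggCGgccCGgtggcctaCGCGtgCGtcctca
RefSeq promoters were matched by symbol to 343 of the 424 genes called higher in 4711-18 and 464 of the 632 called lower, and some genes have several. Searched on both strands, CTCAAG stood in 13.3% of all 32851 promoters of this length, in 12.7% of the 449 promoters of genes called higher in 4711-18 and in 10.6% of the 625 promoters of genes called lower. Among the 11969 promoters of tested genes the share was 12.1%. Sftpb held 7 CG dinucleotides in the 250 bases, Pdx1 10 and Gstp1 18. The median was 10 in the promoters of genes called in either direction, 16 in those of tested genes and 6 in all promoters. A match is a description of the letters and not a bound site.

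The targeted genes were read first. Trp53, the gene whose transcript the trap cuts short, was at 7.42, 6.68 and 5.81 TPM in 4711-1 (in the order sgBgal, sgPpia#3.2, sgPpia#4.1, which holds throughout; where values of both lines are given, 4711-1 comes first) and at 8.41, 5.45 and 8.27 TPM in 4711-18. The groups overlapped. Ppia, which encodes cyclophilin A, was at 2704, 1073 and 1713 TPM in 4711-1 and 2575, 658 and 1684 TPM in 4711-18. Both lines had less Ppia transcript with either guide than with sgBgal, 39.7% and 63.3% of it in 4711-1 and 25.5% and 65.4% in 4711-18. Rb1 (4711-1 4.37, 3.36 and 5.3 TPM, 4711-18 7.52, 9.44 and 6.54 TPM) and Rbl2 (1.98 to 4.14 TPM over the 6 libraries) were low, and values of a whole gene do not show the loss of a floxed exon. Cdkn2a, which lies upstream of p53 and is abundant where p53 is missing, was at 1240.3 to 1789 TPM over all 6. None of the 6 genes on this list was called by limma, and 2 had an unadjusted p under 0.05.

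The tissue label was checked against its markers. Several genes that mark neuroendocrine or other forms of SCLC were close to absent from both lines. Neurod1 reached at most 0.0713 TPM in the 6 libraries, Pou2f3, the factor of the tuft cell form, 0.0375, Dll3 0.185, Chga 0.0913, Chgb 0.134 and Grp 0.101, and Calca was listed at 0 in all 6. Syp stood at 3.03 to 6.5 TPM, Snap25 at 4.52 to 11.2, Ncam1 at 6.9 to 21.6 and Uchl1 at 1.64 to 2.81. Insm1 was low in 4711-1 (values below). Of 45 neuroendocrine secretory and neuronal markers 27 passed the filter, and the list summed to 449 to 651 TPM in the 4711 lines. Yap1, which neuroendocrine SCLC cells usually lack, was at 75.1 to 116 TPM, and Krt8, Krt18 and Vim were at 2827 TPM or more in each of the 6 libraries. On the transcripts named here neither line had the full pattern of neuroendocrine SCLC. Of 22 markers of fibroblasts, endothelium and immune cells only 1 passed the filter, and their summed level was 6.55 to 9.38 TPM in 4711-1 and 4.24 to 8.96 TPM in 4711-18. Ptprc, Pecam1, Col1a1, Col3a1 and Pdgfrb all stayed under 1 TPM in the 6 libraries. The Y-linked genes were read in both lines (Ddx3y 15.6, 16.9 and 23.6 TPM in 4711-1 and 7.75, 7.34 and 5.09 TPM in 4711-18), and Xist was at or under 0.0201 TPM.

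One library stood apart from its line. On log2(TPM + 1) over the tested genes, the 4711-18 sgPpia#3.2 library correlated at r = 0.966 to 0.968 with the other libraries of its line, which correlated at 0.993 with each other. The 4711-1 libraries correlated at 0.984 to 0.988. These correlations are over genes, which are no replicates. In the library that stood apart 784 genes, 6.58% of those tested, lay at least 1 log2 unit from the mean of its line mates, against 143 to 199 genes in the other 5 libraries. Its cell cycle genes had a median log2 difference of -0.97 from those mates (45 tested), its histone genes of -1.29 (47 tested) and its amino acid synthesis and ATF4 genes of 1.14 (35 tested). Among genes picked after their values were seen, Cdkn1a was at 154, 369 and 171 TPM in 4711-18, Trib3 at 24.9, 259.6 and 28.2, Ankrd37 at 7.2, 108 and 7.56 and Rrm2 at 318, 61.5 and 309, so the middle value of each differed from its neighbours. In 4711-1 the sgPpia#4.1 library had the highest Trib3 (37.6, 18.4 and 86.5 TPM) and Ankrd37 (8.06, 9.81 and 22.2 TPM). Where leaving out the sgPpia#3.2 libraries of both lines changed the count of a list, both counts are given. Relative depth, read from the steps between low values, ranged from 1 to 1.66 times the shallowest of the 6 libraries, and the absolute number of reads is unknown.

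In all, 1056 genes, 8.86% of those tested, differed between the lines. Of these 424 (3.56% of those tested) were higher in 4711-18 and 632 (5.31%) lower. At least 4 log2 units separated the lines for 15 genes higher and 24 lower in 4711-18. The median log2 difference over all tested genes was 0.05, with quartiles of -0.24 and 0.33. The 3 values of one line lay above all 3 of the other for 38.9% of the tested genes, and for all but 9 of the called genes. Because the filter asks for 3 libraries, 392 genes passed it through 1 line only, 158 through 4711-18 and 234 through 4711-1, and 293 of them were called. These genes had to differ. They stand in the list counts below, and where one is named it is given by its values and difference with no p (Mycn, Tff2, Guca2a, Fabp1, Cdhr5, Sftpb and Sp5 among them). Genes at 1 TPM or more in exactly 3 of the 6 libraries had a median mean level of 1.34 TPM, and those in exactly 2, just outside the rule, 0.835 TPM. Leaving out the sgPpia#3.2 libraries of both lines kept 964 of the 1056 calls with their direction, reversed none, and added 336. In that setting 1300 genes (10.9%) were called, 461 higher (3.87%) and 839 lower (7.04%). A fit with 1 sgRNA left out keeps only 2 libraries of each line. Its spread is then taken largely from that shared over all genes, so its counts are no firmer than the main ones. Counts of a list are to be read against the shares over all tested genes in the same setting. The genes at the ends of the difference are shown by library, with the Control libraries of the third line of the series, 4716-11, beside them.

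**Figure D1:**
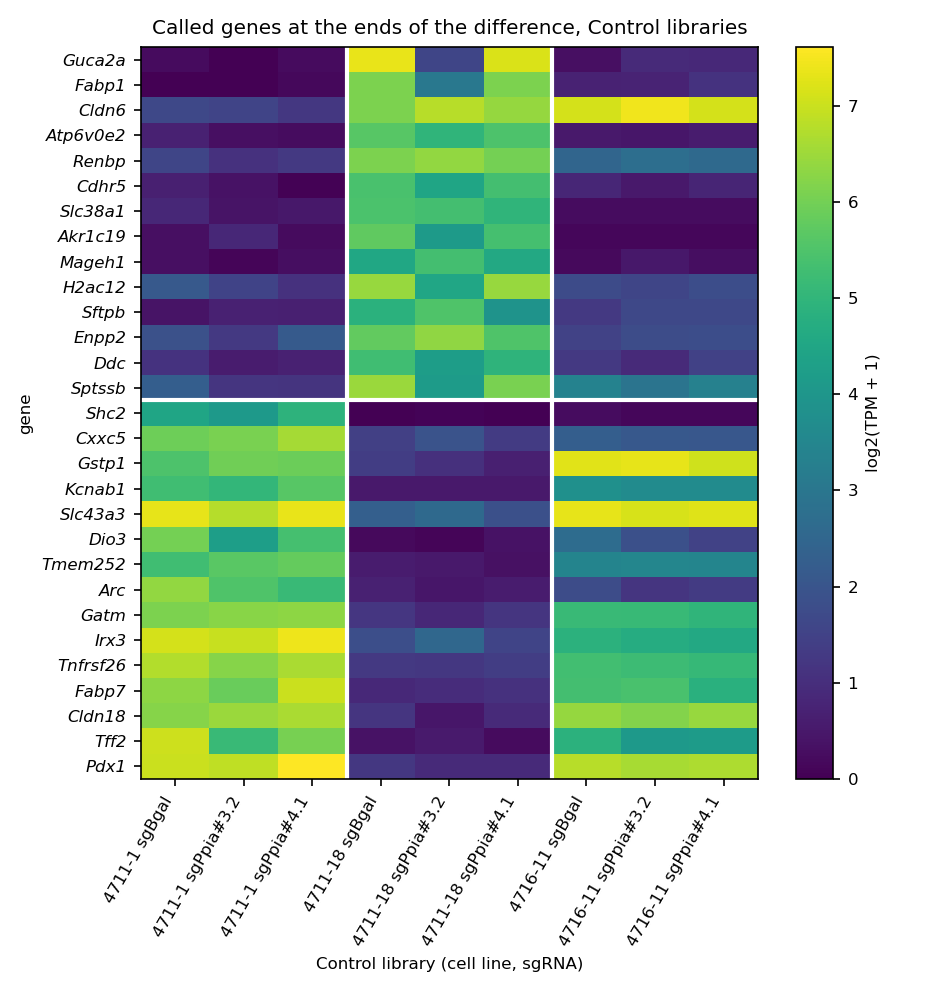
Heat map of log2(TPM + 1) (colour scale) in the 9 Control libraries (columns, by cell line and sgRNA) for 14 of the 15 called genes highest in 4711-18 (upper rows, Guca2a at the top with a log2 difference of 5.22) and for the 15 lowest (lower rows, Pdx1 at the bottom with -6.14). White lines separate the lines and the direction of the difference, and the 4711-18 sgPpia#3.2 column is darker than its neighbours for Guca2a, Fabp1 and H2ac12.

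Transcription factors of the foregut were among the genes that differed most. Pdx1, the factor of the antrum, duodenum and pancreas, was at 126, 116 and 195 TPM in 4711-1 and at 1.35, 0.882 and 0.878 TPM in 4711-18. All 3 values of 4711-1 were above 100 TPM and all 3 of 4711-18 near 1. The log2 difference was -6.14 ± 0.23 (SE, 3 pairs), with a limma adjusted p of 0.00027, and this was the lowest among the called genes with at least 5 TPM in the higher line. Nkx2-1, the factor of the lung and thyroid, had the opposite pattern, with 2.56, 3.54 and 6.77 TPM in 4711-1 and 78.9, 69.6 and 72.8 TPM in 4711-18. Its groups did not overlap, and the log2 difference was 3.90 ± 0.26 (limma adjusted p = 0.00057). Line 4716-11 held Pdx1 at 97.8 to 109.6 TPM and Nkx2-1 at 22.1 to 27.3 TPM, so Pdx1 there was near the 4711-1 level and Nkx2-1 lay between the lines.

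Gata4, a factor of the stomach and other endoderm, was at 0.198, 0.234 and 0.233 TPM in 4711-1 and 7.19, 5.33 and 5.77 TPM in 4711-18, a log2 difference of 2.53 ± 0.18. Meis2 and Pax3, homeobox factors of limb, heart and neural crest development, were low in both lines and higher in 4711-18. Meis2 had 0.126, 0.195 and 0.0934 TPM in 4711-1 against 2.82, 2.77 and 2.86 TPM, and Pax3 stayed below 0.05 TPM in 4711-1 and at 2.65 to 2.9 TPM in 4711-18. None of these genes had overlapping groups.

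On the 4711-1 side, Irx3, an Iroquois factor of neural and limb patterning, was at 139, 126 and 168 TPM in 4711-1 and 2.56, 4.78 and 1.92 TPM in 4711-18, a log2 difference of -5.20 ± 0.28 (limma adjusted p = 0.00036). Sox2 was at 7.31, 11.9 and 11.4 TPM in 4711-1 and 1.26, 0.722 and 0.913 TPM in 4711-18, a log2 difference of -2.49 ± 0.24. Insm1, a neuroendocrine factor, was low in 4711-1 (2.45, 3.36 and 3.37 TPM) and under 0.06 TPM in each 4711-18 library (-1.97 ± 0.18 in log2). Zfhx4 (-2.66), Nkx2-3 (-2.17) and Pax9 (-1.88), the latter a foregut pouch factor, were lower in 4711-18 too. Of 27 tested homeobox factors outside the Hox clusters 3 were called higher and 7 lower in 4711-18 (4 and 9 without the sgPpia#3.2 libraries), and of 39 Hox genes none passed the filter.

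The factors that foregut fields share were not called. Foxa2 was at 82.8, 78.7 and 81.8 TPM in 4711-1 and 97.8, 85.4 and 100.4 TPM in 4711-18, Hnf4a at 167, 124 and 195 and 172, 139.9 and 152, and Foxa1 at 66.9, 59.7 and 97.4 and 49.6, 37.2 and 41.8. The Foxa1 values of 4711-1 lay above those of 4711-18, the Foxa2 values below, and the Hnf4a values overlapped. Among 19 tested SCLC lineage factors 2 were called higher (Nkx2-1 and Mycn) and 2 lower (Sox2 and Insm1), and without the sgPpia#3.2 libraries 2 and 4. Mycn, a growth-driving MYC family member, was below 0.33 TPM in 4711-1 and at 7.24, 9.74 and 4.87 TPM in 4711-18, a log2 difference of 2.77 ± 0.25. Myc stood at 267, 282 and 324 TPM in 4711-1 and 184, 364 and 194 TPM in 4711-18, and Mycl at 9.04, 4.27 and 9.54 and 1.72, 4.81 and 1.54. For both of these the sgPpia#3.2 library gave the highest value of 4711-18 and made the groups overlap.

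**Figure D2:**
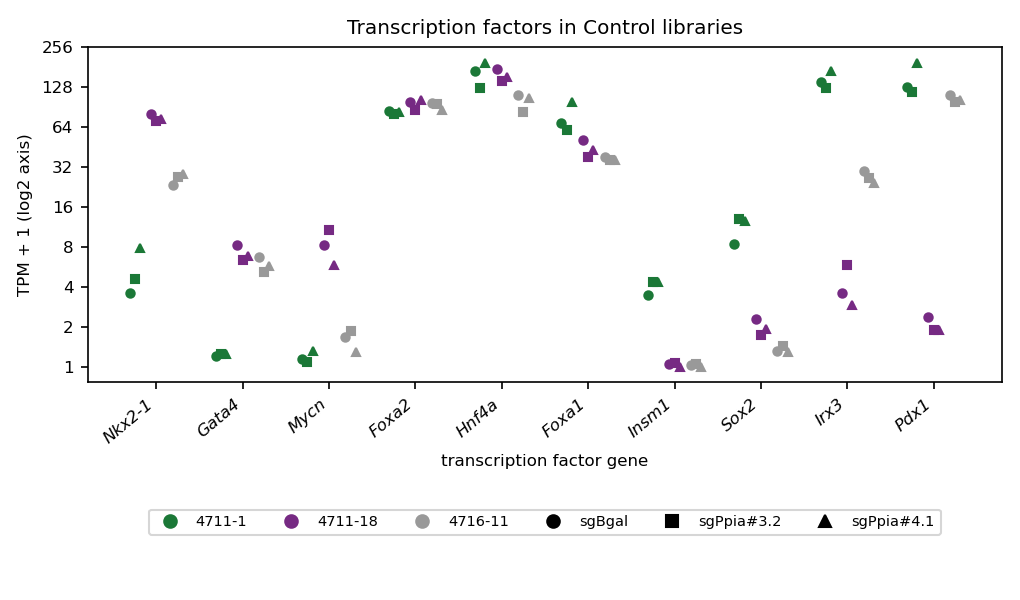
TPM + 1 on a log2 axis for 10 transcription factor genes in each Control library, coloured by cell line (3 libraries each) with the marker showing the sgRNA. Nkx2-1, Gata4 and Mycn were higher in 4711-18, Insm1, Sox2, Irx3 and Pdx1 higher in 4711-1, and Foxa2, Hnf4a and Foxa1, which were not called, lay within 37 to 196 TPM in the 4711 lines.

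Genes of mature foregut and gut epithelia were called in both directions. Over the 30 tested gut and foregut genes 6 were called higher and 5 lower in 4711-18 (median log2 difference 0.09, against 0.05 over all tested genes), and without the sgPpia#3.2 libraries 7 were higher and 11 lower. Tff2, a trefoil peptide of the gastric mucus neck cell, was at 129, 35 and 65.9 TPM in 4711-1 and 0.282, 0.459 and 0.169 TPM in 4711-18, a log2 difference of -5.71 ± 0.37. The tight junction gene Cldn18, which has a stomach and a lung form that these gene-level values do not separate, was at 73.8, 87.8 and 99.2 TPM in 4711-1 and 1.28, 0.39 and 0.876 TPM in 4711-18 (-5.59 ± 0.23). Cathepsin E (Ctse), a protease of gastric surface cells, was at 170.4, 218 and 215 TPM and 9.28, 13.1 and 6.65 TPM in the same order (-4.28 ± 0.23). All 3 of these genes had groups well apart, although Tff2 varied among the 4711-1 libraries.

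Guca2a, the gut hormone guanylin, was among the genes higher in 4711-18. It was at or under 0.17 TPM in 4711-1 and at 162, 2.03 and 143 TPM in 4711-18. The sgPpia#3.2 library was far below its line mates but still above 4711-1. The fitted log2 difference of 5.22 ± 1.04 was 7.04 without the sgPpia#3.2 libraries, and since 1 library of 4711-1 was listed at 0 neither is a fold. Its neighbour hormone Guca2b, which did not pass the filter and was looked up after the values of Guca2a, was at 11.7, 0.727 and 8.58 TPM in 4711-18 and at most 0.193 TPM in 4711-1. Fabp1, the liver and intestinal fatty acid binding protein, was listed at 0 in the sgBgal and sgPpia#3.2 libraries of 4711-1, at 0.117 TPM in the remaining one, and at 67.9, 7.35 and 68.6 TPM in 4711-18. The difference was 5.04 ± 0.59 with and 6.03 without the sgPpia#3.2 libraries.

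Cdhr5, a cadherin that links microvilli, was at 0.576, 0.298 and 0.0227 TPM in 4711-1 and 42.1, 21 and 39.4 TPM in 4711-18 (4.72 ± 0.26), and Vil1, the actin bundler of microvilli, at 11.4, 4.73 and 6.68 and 41.9, 36.1 and 45.8 TPM (2.36 ± 0.23). Afp, alpha-fetoprotein of the fetal liver and gut, was at 5.18, 3.67 and 3.47 TPM in 4711-1 and 35, 30.1 and 37.1 TPM in 4711-18 (2.79 ± 0.19). Sftpb, the surfactant protein B of alveolar cells, was at 0.32, 0.629 and 0.604 TPM in 4711-1 and 28.2, 45.1 and 14.1 TPM in 4711-18 (4.17 ± 0.32). These 4 genes were higher in 4711-18 with no overlap. Of the 5 airway and alveolar markers that passed the filter 2 were called higher in 4711-18 (Sftpb and Ager) and 2 lower, Aqp5, a water channel of alveolar and gland cells, and Krt14, a basal cell keratin. Aqp5 was at 369, 449 and 487 TPM in 4711-1 and 78.4, 81.6 and 78.9 TPM in 4711-18 (-2.43 ± 0.18).

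Epithelial junction and keratin genes were divided as well, with 6 of 27 called higher and 5 lower (6 and 6 without the sgPpia#3.2 libraries). Cldn6, a claudin of embryonic epithelia, was at 2.16, 1.94 and 1.34 TPM in 4711-1 and 68.3, 109 and 84.7 TPM in 4711-18 (4.96 ± 0.22, limma adjusted p = 0.00027), and at 139 to 173 TPM in 4716-11. Spint1, a protease inhibitor of epithelial surfaces, was at 0.416, 0.904 and 0.891 and 7.73, 5.43 and 8.93 TPM, and Grhl3, a grainyhead factor of barrier formation, at 0.95, 0.374 and 0.716 and 7.33, 2.67 and 6.97 TPM. Epcam was low in both lines, 0.757, 1.1 and 0.521 TPM in 4711-1 and 6.25, 1.97 and 5.62 TPM in 4711-18 (1.56 ± 0.34). Of the keratins, 3 on this list were called lower. Krt20, of gastric and intestinal epithelium, was at 316, 190.1 and 253 TPM in 4711-1 and 31.4, 39.7 and 32.3 TPM in 4711-18 (-2.82 ± 0.24), Krt23 at 186, 231 and 327 and 20.1, 104 and 26.3 TPM, and Krt7 at 276, 354 and 233 and 83.6, 173 and 118 TPM. The sgPpia#3.2 library of 4711-18 was nearest to 4711-1 for Krt23 and Krt7, and no group overlapped.

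Matrix genes were called mostly in 1 direction. Of all tested genes 5.31% were called lower and 3.56% higher, and 7.04% and 3.87% without the sgPpia#3.2 libraries. Of 26 tested mesenchymal and matrix genes 7 were called lower in 4711-18 and 1 higher, with a median log2 difference of -0.57, and without the sgPpia#3.2 libraries 10 and 1 with a median of -0.90. The collagens, laminins and metalloproteases, a list that shares members with it, had 11 lower and 1 higher of 39 (median -0.29), and 14 and 1 without those libraries (median -0.48). Col6a1, a chain of the collagen VI microfibril, was at 52.6, 63.4 and 85 TPM in 4711-1 and 4.69, 5.78 and 3.46 TPM in 4711-18 (-3.58 ± 0.25, limma adjusted p = 0.00065), and its partner chain Col6a2 at 12.8, 15.9 and 20.2 and 1.55, 1.1 and 0.608 TPM. S100a4, a calcium-binding protein of motile cells, was at 8417, 7522 and 7203 TPM in 4711-1 and 1564, 597 and 1652 TPM in 4711-18 (-2.73 ± 0.31). Twist1, a mesenchymal factor, was at 22.2, 20.1 and 24.3 and 4.49, 3.76 and 3.68 TPM (-2.22 ± 0.18), and the matrix protease Mmp3 at 16.7, 33.9 and 58 and 2.19, 10.1 and 1.58 TPM (-2.88 ± 0.51). For Mmp3 and S100a4 the sgPpia#3.2 library lay furthest from its line mates, upwards for Mmp3 and downwards for S100a4. The 1 gene called higher was Timp3, an inhibitor of matrix proteases, with 24.2, 19.7 and 23.2 TPM in 4711-1 and 66.2, 52.2 and 37.7 TPM in 4711-18 (1.15 ± 0.21).

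In the TGF-beta and BMP list 10 of 36 tested genes were called lower in 4711-18 and 2 higher, with a median log2 difference of -0.67. Without the sgPpia#3.2 libraries 14 were lower and 2 higher (median -0.76). The shares over all tested genes were 5.31% lower and 3.56% higher, and 7.04% and 3.87% without those libraries. Among ligands, Bmp2 was at 11.1, 21.8 and 29.6 TPM in 4711-1 and 3.22, 3.57 and 3.05 TPM in 4711-18 (-2.25 ± 0.28) and Inhba, an activin subunit, at 18.6, 50.6 and 41.8 and 5.05, 15.1 and 3.52 TPM (-2.21 ± 0.34). Ltbp2, which resembles the binding proteins of latent TGF-beta, was at 7.76, 3.9 and 6.34 and 0.0358, 0.0778 and 0.136 TPM, and the inhibitory Smad6, itself a target of BMP signals, at 88.2, 60.1 and 62.1 and 29.4, 19.3 and 25 TPM (-1.47 ± 0.17). The 2 higher were Gdf15, a stress-induced distant member of the family that p53 can also induce, with 259, 159 and 91.8 TPM in 4711-1 and 1065, 851 and 1327 TPM in 4711-18 (2.76 ± 0.35, limma adjusted p = 0.0052), and the ligand Tgfb2, with 0.408, 0.244 and 0.109 and 3.42, 1.18 and 2.07 TPM. None of these groups overlapped, though the 15.1 TPM of Inhba in the 4711-18 sgPpia#3.2 library came near the lowest value of 4711-1.

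Wnt genes were called in both directions, 4 higher and 5 lower of 24 tested (3 and 7 without the sgPpia#3.2 libraries). Sp5, a direct Wnt target, was at 7.84, 8.52 and 7.56 TPM in 4711-1 and at most 0.124 TPM in 4711-18 (-3.06 ± 0.17). Tcf7, a TCF factor that Wnt signals also induce, was at 74.9, 51.5 and 80.2 TPM in 4711-1 and 4.24, 10.2 and 3.85 TPM in 4711-18 (-3.38 ± 0.37). The ligands Wnt7b (-2.22) and Wnt11 (-2.15) were lower in 4711-18. Tcf7l1, a TCF factor that acts mainly as a repressor, was higher, with 4.89, 5.49 and 6.41 TPM in 4711-1 and 31.7, 26.8 and 24.9 TPM in 4711-18 (2.13 ± 0.20), as were the receptors Fzd7 (1.38) and Lgr4 (1.40). Wnt7a, at 4.67, 12 and 7.55 and 11.7, 32.5 and 10.8 TPM, had overlapping groups and lost its call without the sgPpia#3.2 libraries (1.00 ± 0.23 with and 0.82 without them).

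In the Notch list Notch1 (2.17, 0.89 and 1.44 TPM in 4711-1, 9.45, 4.68 and 6.32 TPM in 4711-18) and the Notch regulator Dtx4 were called higher and the ligand Jag2 lower (70.7, 64.6 and 76.7 and 19.6, 27.3 and 17.7 TPM), of 22 tested. Of 33 receptor tyrosine kinases and ligands 5 were called lower and 1, Pdgfb, higher, and without the sgPpia#3.2 libraries 6 and 0. Egfr was at 9.01, 6.74 and 10.9 TPM in 4711-1 and 1.89, 2.36 and 1.28 TPM in 4711-18 (-1.79 ± 0.25), and Vegfc, a ligand of lymphatic growth, at 13.2, 11.4 and 23.1 and 3.28, 2.13 and 2.25 TPM (-2.20 ± 0.26). Among 25 genes of MAPK feedback and output 1 was called (2 without those libraries), Junb, at 3564, 2547 and 2524 and 1216, 1289.7 and 1414 TPM. Only Cdon of 9 tested Hedgehog genes was called (-1.03). Of all tested genes 3.56% were called higher and 5.31% lower, and 3.87% and 7.04% without the sgPpia#3.2 libraries. The Hedgehog list (11.1% called) and the MAPK list (4%) were near or below the 8.86% of all tested genes.

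Chemokines, interleukins and their receptors had 13 called lower in 4711-18 and 3 higher of 58 tested (median -0.13), and 19 lower and 2 higher without the sgPpia#3.2 libraries (median -0.38). Tnfrsf26, a decoy-type death receptor, was at 105, 73.3 and 98.2 TPM in 4711-1 and 1.4, 1.37 and 1.61 TPM in 4711-18 (-5.23 ± 0.18, limma adjusted p = 0.00027). Tnfrsf11b, the secreted decoy osteoprotegerin, was at 9.54, 11.1 and 17 and 0.454, 1.36 and 0.647 TPM, Ccl9 at 11.4, 10.1 and 15.1 and 2.09, 1.01 and 1.59 TPM, and Il18rap, a chain of the interleukin-18 receptor, at 17.4, 16.5 and 23.1 and 3.06, 4.84 and 2.4 TPM. Cxcl2, which attracts neutrophils, went the other way, with 5.54, 1.52 and 1.79 TPM in 4711-1 and 14.3, 20.5 and 11.8 TPM in 4711-18 (2.17 ± 0.35). Of the antigen presentation and interferon genes 5 were called higher and 2 lower of 30, and 3 and 4 without the sgPpia#3.2 libraries. For this list and that of the chemokines, the shares over all tested genes were 3.56% higher and 5.31% lower. Without those libraries they were 3.87% and 7.04%. H2-K1, a class I heavy chain, was at 9.37, 10.7 and 18.1 TPM in 4711-1 and 55.9, 103 and 60.8 TPM in 4711-18 (2.43 ± 0.29, limma adjusted p = 0.004), and H2-D1 at 54.1, 75.8 and 83.8 and 112, 211 and 128 TPM. Tapbp, the tapasin that loads class I molecules, was at 36.5, 33.3 and 48.6 and 89.4, 87.3 and 74.1 TPM. The call of H2-D1 (1.04) was lost with median-of-ratios rescaling (0.99) and without the sgPpia#3.2 libraries (0.82), that of Tapbp without them (0.93), and class I genes are so alike that reads may be divided wrongly among them. On the lower side stood H2-Q4 (-1.39) and the interferon-induced Ifit3, at 5.82, 5.2 and 7.49 TPM in 4711-1 and 0.48, 0.13 and 0.552 TPM in 4711-18 (-2.37 ± 0.17).

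The largest share of calls towards 4711-18 on any list of at least 13 tested genes was among glutathione, aldehyde and drug handling genes, with 18 higher and 4 lower of 49 (44.9% called in either direction, median 0.64). These enzymes conjugate, reduce or export reactive compounds, and some of them are known targets of the factor NRF2, including uncalled members given last. Nqo1, a quinone reductase, was at 2.34, 1.94 and 1.67 TPM in 4711-1 and 28.9, 19.3 and 27.4 TPM in 4711-18 (3.12 ± 0.19, limma adjusted p = 0.00048). Gsta2, a glutathione transferase, was at 0.389, 0.408 and 0.245 and 11.4, 7.68 and 11.4 TPM (3.03 ± 0.20), and the carbonyl reductase Cbr3 at 2.35, 2.9 and 1.78 and 31.2, 14.5 and 32.6 TPM (2.95 ± 0.32). Akr1c13, an aldo-keto reductase, was at 40.4, 41 and 43.7 and 277, 344 and 289 TPM (2.83 ± 0.18), and Akr1c19 of the same gene cluster at 0.229, 0.795 and 0.168 and 52.7, 16.7 and 40.3 TPM (4.63 ± 0.41). Members of the Akr1c, Gsta and Gstm families are near copies of each other, so single values of them are uncertain. Looked up after these values, Nfe2l2, which encodes NRF2, was at 90.6, 65.3 and 105 TPM in 4711-1 and 142, 126 and 123 TPM in 4711-18, and its inhibitor Keap1 at 24.9, 23.2 and 28.8 and 35.9, 34.9 and 36.7 TPM. In both the 4711-18 values lay above those of 4711-1, and neither was called (limma adjusted p = 0.11 and 0.13). The NRF2 targets Gclc and Gclm, which make glutathione, and Hmox1, which degrades haem, were not called in Control either. Their log2 differences were 0.28 ± 0.17, 0.30 ± 0.21 and 0.17 ± 0.22 (limma adjusted p = 0.34, 0.42 and 0.67). In Restored libraries Gclc was called higher in 4711-18 (1.00 ± 0.18, limma adjusted p = 0.015). Gclm (0.53 ± 0.17) and Hmox1 (0.48 ± 0.34) were not called there.

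Gstp1, the pi class glutathione transferase whose promoter is shown above, was called lower. It was at 43.6, 61.2 and 59.4 TPM in 4711-1 and 1.63, 1.06 and 0.585 TPM in 4711-18 (-4.75 ± 0.26, limma adjusted p = 0.00036), and at 133 to 159.8 TPM in 4716-11. The near copy Gstp2 was under 0.6 TPM in all 6 libraries. Aldh1a3, which makes retinoic acid, was at 198, 105 and 254 TPM in 4711-1 and 21.3, 54.4 and 17.4 TPM in 4711-18 (-2.63 ± 0.52), and the sgPpia#3.2 libraries were nearest to each other. The other members of the list called lower were Aldh1l1, a folate enzyme, with 4.71, 4.22 and 10.9 TPM in 4711-1 and 0.198, 0.108 and 0.282 TPM in 4711-18 (-2.57), and the cytochrome P450 gene Cyp1b1, with 16.4, 11.3 and 20.2 and 2.7, 2.8 and 1.33 TPM (-2.37).

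Other genes at the ends of the comparison had varied roles. On the 4711-1 side, Fabp7, a fatty acid binding protein of neural progenitors, was at 78.6, 57.8 and 127 TPM in 4711-1 and 0.843, 0.973 and 1.14 TPM in 4711-18. Gatm, which makes the precursor of creatine, was at 68, 76.2 and 79.4 and 1.33, 0.813 and 1.24 TPM, the immediate early gene Arc at 82.3, 45 and 35 and 0.613, 0.367 and 0.48 TPM, and Dio3, which inactivates thyroid hormone, at 63.4, 18.2 and 40.3 and 0.15, 0.0697 and 0.282 TPM. The purine transporter Slc43a3 was at 158, 107 and 162 and 3.92, 5.11 and 2.63 TPM. Tmem252 (-5.11), Cxxc5 (-4.63) and the adaptor Shc2 (-4.45) completed the 15 lowest with genes described above and Kcnab1. On the 4711-18 side, Slc38a1, a glutamine transporter, was at 0.804, 0.313 and 0.407 TPM in 4711-1 and 43.2, 39.3 and 30.5 TPM in 4711-18 (4.68 ± 0.18). Renbp, an enzyme of amino sugar metabolism, was at 1.99, 1.14 and 1.4 and 68.4, 82.7 and 64.5 TPM, and Atp6v0e2, a subunit of the vacuolar proton pump, at 0.617, 0.252 and 0.194 and 49.1, 30.4 and 43.4 TPM. The X-linked Mageh1 was at 0.236, 0.0825 and 0.212 and 22.1, 39.6 and 23.3 TPM, Enpp2, the lysophosphatidic acid producer autotaxin, at 2.67, 1.4 and 3.45 and 53.6, 80.5 and 44.6 TPM, and Ddc, the decarboxylase of dopamine and serotonin synthesis, at 1.18, 0.487 and 0.615 and 38.1, 18 and 29.8 TPM. Sptssb, of sphingolipid synthesis, was at 86.9, 17 and 66.3 TPM in 4711-18 and the histone gene H2ac12 at 84.9, 21.6 and 85.8 TPM, against at most 3.89 and 3.34 TPM in 4711-1. In these last genes the sgPpia#3.2 library had the lowest 4711-18 value.

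Ion channels gave 8 called lower and 2 higher in 4711-18 of 21 tested. Against these and the following counts stood 5.31% lower and 3.56% higher over all tested genes, and 7.04% and 3.87% without the sgPpia#3.2 libraries. The potassium channel genes Kcnab1, a beta subunit, at 38, 31.7 and 48.2 TPM in 4711-1 and 0.435, 0.43 and 0.428 TPM in 4711-18 (-4.80 ± 0.19), Kcnf1 (-2.75), Kcnu1 (-2.73) and Kcnn1 (-2.45) had the largest differences. The calcium channel genes Cacng7 and Cacna1h were the 2 called higher, and lost their calls without the sgPpia#3.2 libraries (0.78 and 0.76). Of 42 tested axon guidance genes, which without the sgPpia#3.2 libraries had 2 higher and 7 lower, 3 were called higher, led by Sema4a (1.81, 0.672 and 1.09 TPM in 4711-1, 16.3, 10.4 and 11.9 TPM in 4711-18), and 4 lower, led by Sema3f (68.3, 48.8 and 69 and 11, 14.6 and 5.94 TPM). Surface antigens had 4 lower of 22, among them Ly6a at 651, 678 and 671 and 136, 94.6 and 167 TPM, whose family members are also near copies. Neuroendocrine and neuronal markers had 3 lower and 1 higher (Ddc) of 27 (4 and 1 without the sgPpia#3.2 libraries), integrins 1 each way of 13 (1 higher and 4 lower without them), and imprinted genes 2 higher of 13 (Ddc and Peg10).

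**Figure D3:**
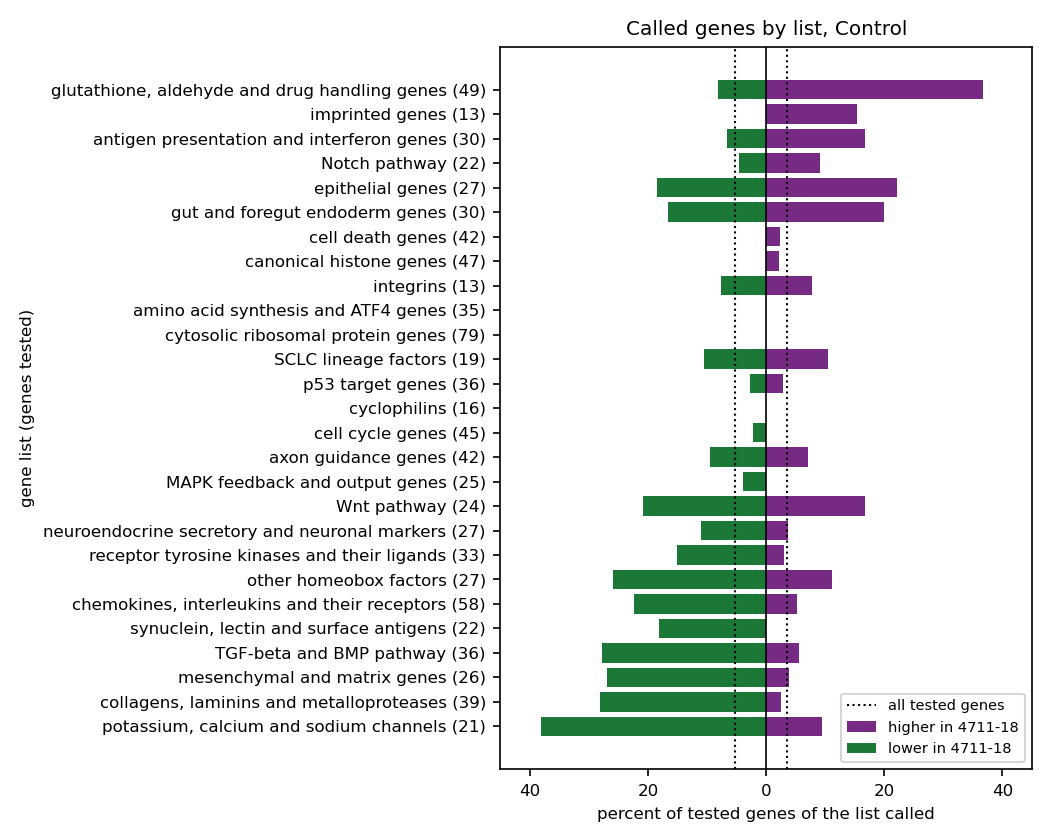
Percent of the tested genes of each list (number in brackets) that were called higher (right) or lower (left) in 4711-18 in the Control comparison, for lists with at least 13 tested genes, ordered by the balance of both. Dotted lines mark 3.56% higher and 5.31% lower over all tested genes, and lists share members.

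Several lists lay at or below the share over all genes when all libraries were used. Cell cycle genes had 1 called of 45, Cdkn2c, a CDK inhibitor (67.7, 62.8 and 64.9 TPM in 4711-1, 35.8, 15.8 and 33.8 TPM in 4711-18), a call that was lost without the sgPpia#3.2 libraries (-0.91). In that setting 1 cell cycle gene was called higher and 1 lower, and the median of the list was 0.18 against -0.04 with all libraries. By limma none was called of 79 cytosolic ribosomal protein genes (13 at an unadjusted p under 0.05), of 16 cyclophilins (3) and of 35 amino acid synthesis and ATF4 genes (5). Without the sgPpia#3.2 libraries 1 ribosomal protein gene was lower, and 1 of the ATF4 list was higher and 4 lower. Of 47 histone genes 1 was called higher, H2ac12, and without these libraries 10. The whole ATF4 list had a median of 0.21 with and -0.27 without them, and the histone genes of -0.03 and 0.42. Of 36 p53 targets, read here with Trp53 trapped, Gdf15 was called higher and Perp, a desmosome gene, lower (201, 193 and 166 TPM in 4711-1, 73.6, 81.7 and 82.5 TPM in 4711-18), and Mdm2 stood at 93.3, 83.6 and 76.2 and 88.8, 95.7 and 92.3 TPM. Of 42 cell death genes 1 was called, Gsdme, a gasdermin that caspase-3 cleaves, at 20.4, 19.9 and 18.4 TPM in 4711-1 and 48.6, 50.3 and 48.8 TPM in 4711-18 (1.29 ± 0.17, limma adjusted p = 0.0054). One germline gene of 36 passed the filter and was not called.

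The gene lists of the study were counted too. The study made them from other libraries of lines that include these, so they are not independent of the lines compared. Of the genes that it found to mark lines that stay viable after restoration (Type V) 1 was called higher and 6 lower of 37 tested, 18.9%. Of those that mark the lines that die (Type D), to which both 4711 lines belong, 4 were called higher and 5 lower of 107, 8.41%. Its modules of genes that respond to restoration had 2 higher and 6 lower of 204 (Module 1), none of 56 (Module 2, 11 at an unadjusted p under 0.05), 2 and 2 of 227 (Module 3), 7 and 2 of 73 (Module 4), 2 and 5 of 92 (Module 5) and 1 and 3 of 61 (Module 6). The Type V list and Module 4, with 12.3%, were above the 8.86% of all tested genes and the others below. Without the sgPpia#3.2 libraries, where 461 genes were called higher and 839 lower (10.9% of all tested), Module 1 had 2 higher and 9 lower, Module 2 none, Module 4 10 and 3, Module 3 14 higher and 2 lower, Module 5 1 and 10, Module 6 1 and 8, the Type V list 1 and 10, and the Type D list 4 and 8. Module 4, Module 5, Module 6, the Type V list and the Type D list then lay above that share, and Modules 1, 2 and 3 below it.

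The difference was not spread evenly over the genome. Chromosomes were taken from RefSeq (GRCm38.p6) for 11861 of the 11913 tested genes, and the medians are descriptions with no test. Chromosome 19 had the lowest median log2 difference of any autosome, -0.49 over 430 genes. The median was -0.41, -0.43 and -0.63 in the sgBgal, sgPpia#3.2 and sgPpia#4.1 pairs (mean -0.49 ± 0.12, SD, n = 3), only 14.0% of its genes lay above 0, and 47 of its genes were called lower and 4 higher. Chromosomes 12 (-0.28, 403 genes) and 4 (-0.25, 730 genes) followed. At the other end stood chromosome 3 (0.39 over 592 genes, 43 higher and 22 lower, 80.9% of genes above 0) and chromosome 17 (0.38 over 607 genes, 39 higher and 16 lower, 82.2% above 0). In the 3 pairs chromosome 3 had medians of 0.51, 0.45 and 0.20 and chromosome 17 of 0.42, 0.47 and 0.26. Each pair gave the same sign for these 5 chromosomes. The sgPpia#4.1 pair had the lowest median on every autosome and on the X chromosome.

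**Figure D4:**
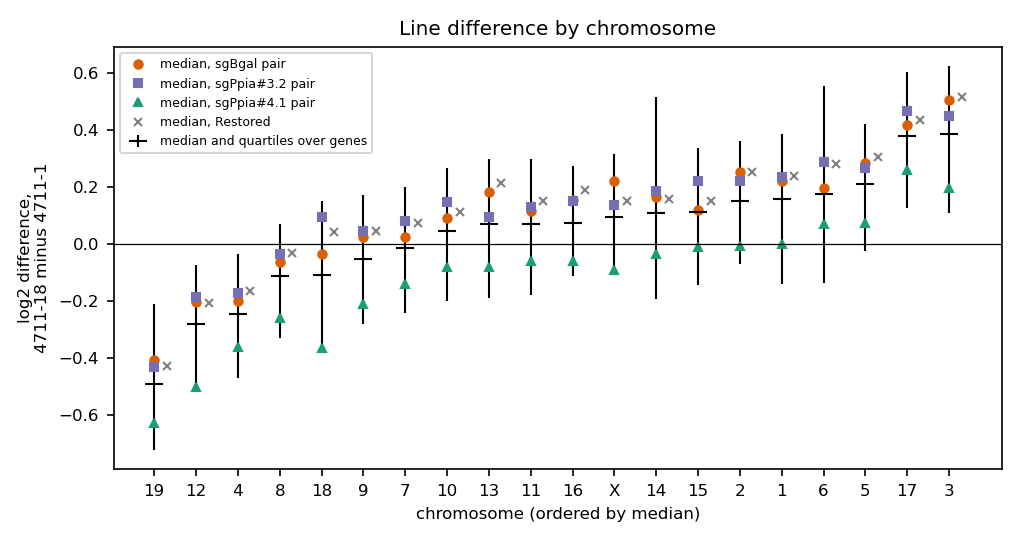
Median log2 difference (4711-18 minus 4711-1, Control) for the tested genes of each chromosome, with quartiles over genes as bars, the median in each sgRNA pair as coloured markers and the median in Restored libraries as grey crosses. Chromosome 19 is lowest at -0.49 and chromosomes 17 and 3 are highest at 0.38 and 0.39, and the Y chromosome with 4 tested genes is left out.

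The 4 tested Y-linked genes were all lower in 4711-18, with a median of -1.21. Ddx3y (-1.35 ± 0.25), Kdm5d (-1.22 ± 0.20) and Uty (-1.20 ± 0.25) were called, and Eif2s3y, at 38.6, 46.8 and 48.5 TPM in 4711-1 and 26.1, 25 and 19.5 TPM in 4711-18, was not, its difference being -0.90. In 4716-11 Ddx3y was at 0.0354 to 0.0847 TPM. Fewer cells with a Y chromosome and less of its RNA per cell cannot be told apart.

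Runs of 25 neighbouring tested genes were also read. Their medians ranged from -0.73 to 0.88 over 11377 overlapping runs, and 5.02% were at least 0.5 in size. The highest run lay on chromosome 14, from 1700108F19Rik to Lmo7, with a median of 0.88 and 21 of its 25 genes above 0, and a second one there, from Elp3 to Tnfrsf10b, had 0.70. On chromosome 6 the run from Polr1a to Pole4, which holds Sftpb and Tcf7l1, had a median of 0.71 with 23 of 25 genes above 0, and that from Krba1 to Hibadh, which holds Atp6v0e2 and Gsdme, 0.69. The 4 lowest separate runs were all on chromosome 19. In the run from Gm19557 to Dclre1a none of the 25 genes was above 0 (median -0.73, and -0.67, -0.76 and -0.98 in the 3 pairs), and the run from Ric1 to Kif20b, which holds Ifit3, had a median of -0.69. Calls of Sftpb, Tcf7l1, Gsdme and Ifit3 thus stand among neighbours that moved the same way, and the part of the neighbourhood in each was not tested.

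Most line differences were still there after p53 was restored. In the Restored libraries 1181 genes, 9.91% of the same 11913, were called, 551 higher (4.63%) and 630 lower (5.29%) in 4711-18. The median over all genes was 0.13 there and 0.00 after median-of-ratios rescaling, which gave 416 higher and 750 lower. Called with the same direction in both states were 733 genes, 69.4% of those called in Control and 62.1% of those called in Restored, and none was called in opposite directions. Over all tested genes the log2 differences of both states correlated at r = 0.85 (Spearman's rho 0.78), a description over genes that share lines and guides. Pdx1 had a log2 difference of -5.83 ± 0.35 in Restored libraries, Nkx2-1 4.88 ± 0.32, Cldn18 -4.82 ± 0.18, Irx3 -5.09 ± 0.22, Gstp1 -4.41 ± 0.24 and Nqo1 3.92 ± 0.17. Chromosome 19 had a median of -0.43, chromosome 3 of 0.52 and chromosome 17 of 0.44.

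The test of the difference between both states called 8 genes (0.0672% of those tested), 3 with a larger and 5 with a smaller value of 4711-18 minus 4711-1 after restoration, and 1411 at an unadjusted p under 0.05. All 8 calls were lost without the sgBgal libraries and without the sgPpia#4.1 libraries, and 6 of 8 without the sgPpia#3.2 libraries and 6 of 8 with a pseudocount of 0.1. The Control and the Restored library of a line and guide come from the same derivative. The fit held no term for that pairing and took them as independent. The metalloprotease Mmp15 was at 18.1, 14.8 and 16.8 TPM in 4711-1 and 2.35, 1.61 and 1.65 TPM in 4711-18 in Control, and at 92.7, 66 and 62.7 and 46, 54.3 and 41.5 TPM in Restored libraries. Its difference went from -2.62 to -0.62, a change of 2.0 ± 0.21 (limma adjusted p = 0.016). Ppbp, a platelet chemokine, was at 6.11, 5.37 and 4.62 TPM in 4711-1 Control libraries and at most 0.489 TPM in the other groups of both lines (change 2.28 ± 0.23). Akr1c13 in Restored libraries was at 101, 88.7 and 84.6 TPM in 4711-1 and 262, 218 and 257 TPM in 4711-18, nearer to each other than in Control (change -1.41 ± 0.19, limma adjusted p = 0.046). Nptx1, a neuronal pentraxin, and Fam167a changed by -1.92 ± 0.25 and -2.11 ± 0.22, and Paqr5, a membrane progestin receptor, by -1.82 ± 0.20.

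Fabp1, Sftpb and Guca2a had smaller differences in Restored libraries and missed that test. Fabp1 was listed at 0 in all 3 Restored libraries of 4711-18, and its difference was 5.04 and then -0.09. Sftpb in 4711-18 was at 0.649, 3.26 and 0.413 TPM in Restored libraries, a difference of 0.85, and Guca2a at 1.6, 1.4 and 2.21 TPM, a difference of 0.79. A p that misses the threshold does not show that the states were alike.

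**Figure D5:**
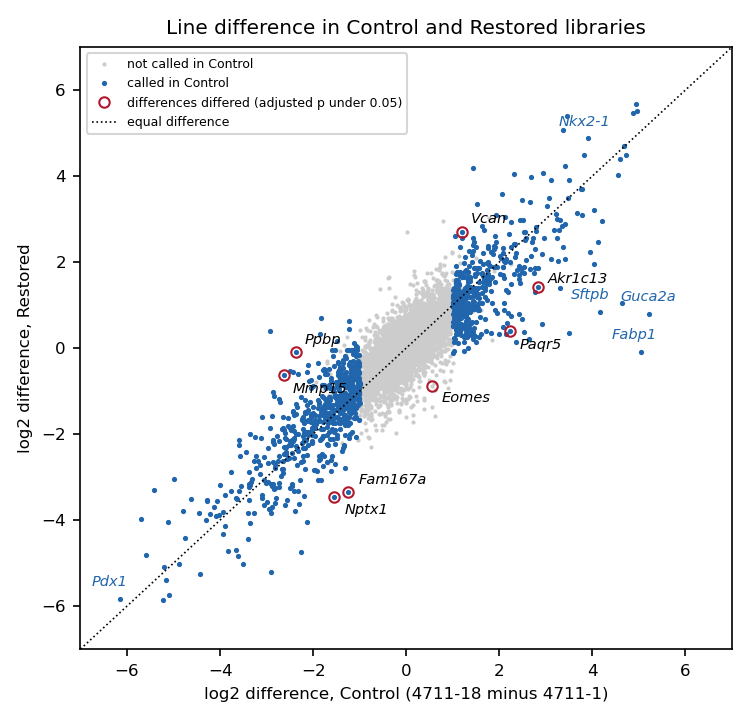
Log2 difference (4711-18 minus 4711-1) in Restored libraries against that in Control libraries for all 11913 tested genes, with genes called in Control in blue, the dotted line at equal difference and red circles on the 8 genes whose differences differed. Most called genes lie near the line, as Pdx1 (-6.14 and -5.83) does, whereas Fabp1 lies at 5.04 in Control and -0.09 in Restored libraries.

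The third line was set beside both. Control libraries of 4711-1 and 4711-18 correlated at r = 0.922 to 0.937 over the tested genes, 4711-1 and 4716-11 at 0.950 to 0.965, and 4711-18 and 4716-11 at 0.931 to 0.953. These are descriptions over 9 library pairs each, which share libraries, and the genes were filtered on the 4711 lines alone. That filter let in 392 genes that had to differ between the 4711 lines and left out genes read only in 4716-11, so the ranges are not on an equal footing. The mean log2 level of 4716-11 was nearer to 4711-1 than to 4711-18 for 317 of the 424 genes called higher in 4711-18 (74.8%), for 317 of the 632 called lower (50.2%) and for 52.9% of all tested genes. Slc38a1 and Atp6v0e2, both at 30.4 TPM or more in every 4711-18 library, were at most 0.483 TPM in 4716-11 and at most 0.804 TPM in 4711-1. Slc43a3 (141 to 159 TPM) and Cldn18 (71.8 to 85.4 TPM) were in 4716-11 near their 4711-1 levels, and Shc2, Arc and Cxxc5 there were under 4 TPM, near those of 4711-18.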

How the data were processed

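RNA-sequencing libraries of the CRISPR-targeted Type D lines were used, 3 Control libraries of each 4711 line and, where stated, their Restored libraries and those of 4716-11. The authors deposited TPM per gene. Per the labels, reads were handled with bcl2fastq 2.17 and HISAT2. The paper names Kallisto as well, limma or a count model for testing, and the mouse genome as mm10 and as GRCm39; which applied here is not given in the sources used here, so no gene coordinates of the files are printed.

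TPM were analysed as log2(TPM + 1), which understates differences of low genes, with limma 3.58.1 (R 4.3.3; lmFit, eBayes) and terms for cell line and sgRNA, on the genes at 1 TPM or more in at least 3 of the 6 libraries. Calls needed a Benjamini-Hochberg adjusted p under 0.05 and, except for the difference between states (12 libraries), an absolute log2 difference of at least 1. In a test on simulated data with 200 changed genes among 11913, 49% were recovered at a log2 difference of 1.5 and 82% at 3, with 3 false calls. The simulated noise was independent between genes and libraries, with no sgRNA effect and no library that stood apart. The 3 false calls are therefore no error rate of the real libraries.

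Genes named were the 15 highest and 15 lowest called genes with separated groups and at least 5 TPM in the higher line, the targeted, sex-linked and lineage genes, up to 4 called genes per list and direction, genes of the described runs, and genes called between states, up to 10. Others are marked in the text or were chosen after their values were seen (Krt8, Krt18, Vim, Syp, Snap25, Ncam1, Hnf4a, Mdm2, Gstp2, the markers at or near 0). The comparison, the gene lists and the members were chosen with earlier results of these data known. Lists of the study came from its supplementary data. Relative depth was the most frequent exact ratio of values under 1 TPM between libraries. Promoter sequences and chromosomes came from RefSeq. Guide sequences are not printed, and a few genes that the naming rule gives are not reported here. Alternatives were another pseudocount (0.1), rescaling, other filters, no sgRNA term, trended and robust eBayes, all 9 libraries of a state, no minimum difference and leaving out libraries.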

Additional observations from a re-analysis of the deposited data

Results flagged for a closer look

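The line difference itself differed between Control and Restored libraries for 8 genes in the interaction term of limma. That fit did not pair the Control and Restored library of each derivative. The change in 4711-18 minus 4711-1, Restored less Control, was 2.28 for Ppbp, 2.0 for Mmp15 and 1.51 for Vcan, a matrix proteoglycan that was at 1.6, 2.22 and 1.16 TPM in 4711-18 Control and 12.3, 13.1 and 10.5 TPM in Restored libraries. It was -2.11 for Fam167a, -1.92 for Nptx1, -1.82 for Paqr5, -1.42 for Eomes and -1.41 for Akr1c13. Eomes, a T-box factor, was the only one of these not called in Control, with 6.56, 4.4 and 5.12 TPM in 4711-1 and 9.72, 6.81 and 8.24 TPM in 4711-18, and in Restored libraries 8.24, 7.16 and 7.11 and 4.55, 2.48 and 4.16 TPM. Ppbp, Fam167a, Paqr5 and Vcan were under 1 TPM in all 3 Control libraries of a line and entered the test through the other, so no p is given for them. For Mmp15, Eomes, Nptx1 and Akr1c13 the limma adjusted p lay between 0.016 and 0.046. Each change rests on 3 libraries per group, and part of the Control values of 4711-18 come from the sgPpia#3.2 library that stood apart. None of these 8 kept its call without the sgBgal libraries or without the sgPpia#4.1 libraries, 2 of 8 kept it without the sgPpia#3.2 libraries, and 2 of 8 with a pseudocount of 0.1.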

How the results depend on the processing

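Counts are given as higher and lower in 4711-18. The Control comparison had 424 and 632 genes called. No filter on low values gave 196 and 300 of 20494 tested, and no minimum difference 714 and 831. Leaving out libraries gave 321 to 477 and 517 to 839. In Restored libraries 551 and 630 were called, with no filter 241 and 260, with no minimum difference 2286 and 1328, and with an sgRNA left out 485 to 614 and 535 to 708. The other alternatives stayed within 1.5 times of these counts. Of the genes on any list other than the study's 167 were called, and 162 to 179 with rescaling, no block or a pseudocount of 0.1. The medians of chromosomes 3, 4, 5, 12, 17 and 19 moved by less than the SD of the 3 pairs.

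The test between states, 3 and 5 genes, depended most on the settings. Median-of-ratios rescaling gave 19 and 21, no filter 31 and 21, at least 5 TPM 1 and 0, no replicate block 11 and 12. Without the sgBgal libraries or the sgPpia#4.1 libraries it gave 0 and 0 (562 and 692 genes at an unadjusted p under 0.05), without sgPpia#3.2 16 and 14. The cause was not tested.

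Libraries with the same sgRNA correlated in their deviations from the line means at r = 0.31 over genes for sgBgal, -0.22 for sgPpia#3.2 and -0.52 for sgPpia#4.1, and 1 of 3 correlated best with its own number, so not every sgRNA pair deviated together. Without the replicate block 435 and 642 genes were called in Control. Without the 4711-18 sgPpia#3.2 library alone and without the block, an alternative chosen after seeing the data, 477 and 751 were called.

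Of the 177 called genes among those looked up by name 89 kept their call under each alternative that tested them, and none changed sign; 82 lost it with no filter and 31, 11 and 25 without the sgBgal, sgPpia#3.2 or sgPpia#4.1 libraries. TPM keep no read counts, so the precision of low genes is unknown.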
